A study of Mus musculus with 21 samples.

Results

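The 6 libraries described here are the batch 2 long-term haematopoietic stem cells (LT-HSC) of mice labelled as retinoid X receptor (RXR) knockouts and of their Cre controls, out of 21 libraries in the series. They were chosen by their labels. The 3 knockout libraries carry the Vav1-Cre transgene and floxed Rxra and Rxrb alleles (Vav1Cre+Rxrabfl/fl, replicates 4, 5 and 6), and the 3 control libraries carry the same transgene on a background labelled WT (Vav1Cre+WT, replicates 4, 5 and 6). By these labels both groups carry Cre under the Vav1 promoter, which is active across blood cells. LT-HSC were sorted from lineage-negative bone marrow of pooled animals, so each library stands for a pool, and the labels used here give no age, sex or strain. The series of 21 also holds 3 batch 2 LT-HSC libraries with a further floxed Myc-family allele (Vav1Cre+Rxrabfl/fl Myclfl/+, named Myc in the sample descriptions), 3 knockout and 3 floxed control LT-HSC libraries of batch 1, and 6 libraries of multipotent progenitors (MPP) of batch 1. Expression is given as TPM, a level per transcript length and relative to its library, and splicing as percent spliced in (PSI), a share from 0 to 1 of the reads on an examined junction.

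Retinoid X receptors are nuclear receptors that bind DNA as partners of other nuclear receptors. RXR pairs with retinoic acid receptors, with LXR (liver X receptors, which control cholesterol export), with PPAR (which control fatty acid use), and with the vitamin D and thyroid hormone receptors. LT-HSC are the rare, mostly resting cells that sustain all blood lineages. Loss of both floxed receptors in blood cells is the condition that the knockout label stands for.

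The receptor transcripts did not separate the knockout label from the control label on every scale. Rxra (GRCm38 chr2:27676445-27763319) was at 1.27, 7.46 and 4.00 TPM in the libraries labelled knockout, against 4.14, 4.85 and 4.58 TPM in the Cre controls. The highest and the lowest Rxra values of the 6 libraries both carried the knockout label, so the groups overlapped. The means were 4.24 ± 3.11 TPM in labelled knockouts and 4.52 ± 0.362 TPM in Cre controls (SD, n = 3 each; exact two-sided permutation p = 0.8). The smallest p that 3 against 3 libraries can give is 0.1. Rxrb (chr17:34031812-34038403) was at 12.8, 10.6 and 11.1 TPM in labelled knockouts, against 15.1, 16.0 and 14.5 TPM in Cre controls. Those groups did not overlap, with a difference of -3.69 TPM (exact permutation p = 0.1), but they did once libraries were rescaled by the median of ratios (14.0, 13.1 and 9.75 in labelled knockouts, against 13.6, 14.3 and 12.6 in Cre controls; exact permutation p = 0.6). Rxrg, the third receptor of the family, did not exceed 0.106 TPM in labelled knockouts or 0.0351 TPM in Cre controls. Myc, a growth regulator and the gene that the sample descriptions of the other batch 2 libraries name, was at 125, 102 and 158 TPM in labelled knockouts, against 141, 143 and 140 TPM in Cre controls, and those groups overlapped.

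The Rxra junction that skips an exon was close to absent under the knockout label. This junction (chr2:27741203-27748612) had a PSI of 0, 0.0127 and 0 in labelled knockouts, against 0, 0 and 0 in Cre controls. The same junction reached 0.647, 0 and 1 in the batch 2 libraries with the Myc allele, and 0.938 in the only batch 1 LT-HSC knockout library with a value. The junction that includes the exon (chr2:27741203-27741764) had no value in knockout replicate 4 and was at 0.978 and 1 in replicates 5 and 6, against 1 in each Cre control. The junction values of replicates 5 and 6 therefore show the exon included in nearly all measured Rxra junction reads, which goes against the label. The depth behind a PSI value is not in the deposited table. For these reasons the difference between the groups is given below as one between libraries labelled knockout and libraries labelled Cre control, not as an effect of the deletion. In Rxrb the table holds a pair of alternative 3′ splice sites. The junction chr17:34036757-34036861 had a PSI of 0.967, 0.619 and 0.333 in labelled knockouts, against 0.268, 0.518 and 0.294 in Cre controls, and the groups overlapped.

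**Figure D1:**
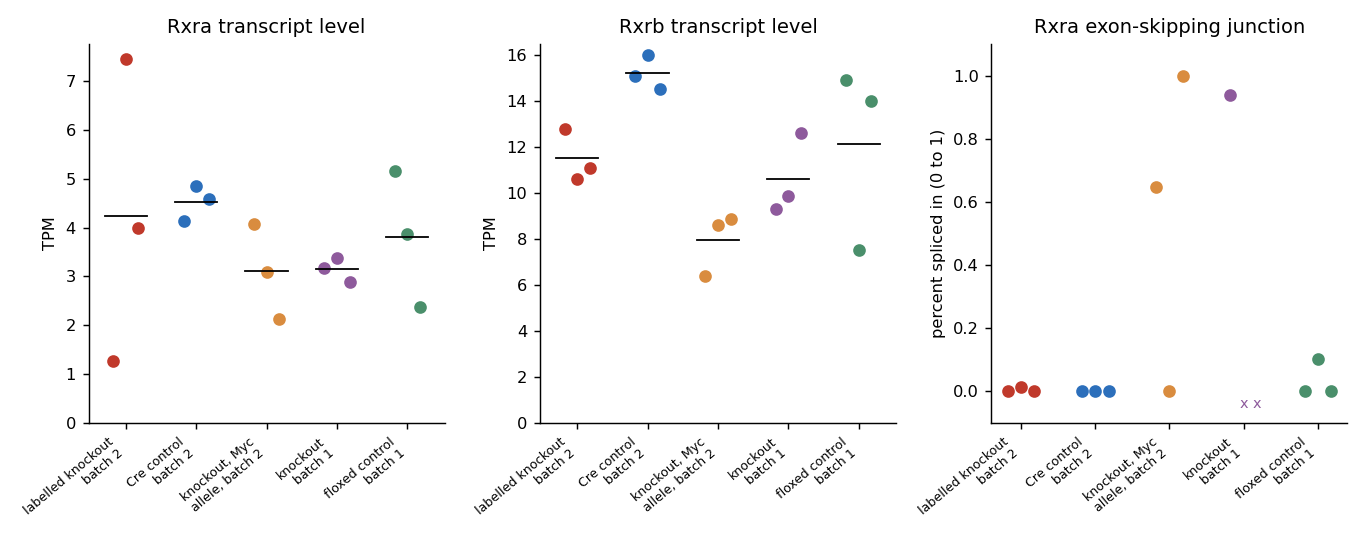
Levels of Rxra and Rxrb in TPM and PSI of the Rxra exon-skipping junction, by LT-HSC group. Points are libraries, black lines in the TPM panels are means of 3 libraries, and a small x marks a library without a PSI value. The 3 batch 2 knockout libraries lie at or near 0 for the skipping junction, as do the Cre controls.

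The libraries also differed in ways that touch every comparison. Labelled knockout replicates 4 and 5 stood apart from the other 4 libraries. Their Pearson correlations with the single Cre controls, over the 13445 genes tested, averaged 0.939 and 0.924, against 0.972 for knockout replicate 6. Splicing values were present for 88.7% and 82.4% of events in knockout replicates 4 and 5 and for 95.1% in replicate 6, against 95.4% to 97.1% in the Cre controls. A single identifier took up 28.3% to 29.6% of the summed TPM in labelled knockouts and 24.7% to 29.6% in Cre controls. The median log2 difference of all genes was -0.25, labelled knockout minus Cre control, and -0.03 after rescaling, so every change of expression is read against that shift.

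The sorted cells had the defining transcripts of LT-HSC, several of them at lower levels in the same 2 knockout libraries. Procr, the endothelial protein C receptor used to sort stem cells, was at 17.3, 16.9 and 64.1 TPM in labelled knockouts, against 49.5, 52.1 and 40.6 TPM in Cre controls. Slamf1, the CD150 sort marker, was at 16.6, 16.3 and 34.7 TPM in labelled knockouts, against 26.5, 25.2 and 23.9 TPM in Cre controls. Hoxb5, a homeobox marker of LT-HSC, was at 0.30, 0.378 and 5.85 TPM in labelled knockouts, against 3.22, 2.48 and 2.37 TPM in Cre controls. In each of these genes knockout replicates 4 and 5 were below all 3 controls and knockout replicate 6 was above them. Mecom, a transcription factor that stem cells need, showed the same order, with 69.6, 51.4 and 120 TPM in labelled knockouts, against 113, 113 and 107 TPM in Cre controls. The stem cell factor receptor Kit was at 94.2, 112 and 134 TPM in labelled knockouts, against 114, 118 and 144 TPM in Cre controls. Of markers that should be low in LT-HSC, Cd34 was still read, at 40.8, 43.0 and 42.7 TPM in labelled knockouts, against 43.4, 60.7 and 64.8 TPM in Cre controls. Those levels were below the ones in MPP of batch 1, at 171, 150 and 171 TPM in floxed controls and 164, 167 and 165 TPM in knockouts. Cd48 was at 1.28, 0 and 1.28 TPM in labelled knockouts, against 1.43, 2.55 and 3.12 TPM in Cre controls, and the cytokine receptor Flt3 was at 5.80, 2.70 and 5.91 TPM, against 3.60, 8.71 and 12.7 TPM in Cre controls. None of the 40 LT-HSC genes passed the test, and their summed TPM was 2175, 1825 and 3546 in labelled knockouts, against 3140, 3329 and 3109 in Cre controls. In bulk libraries, fewer cells of a type and less RNA per cell cannot be told apart.

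**Figure D2:**
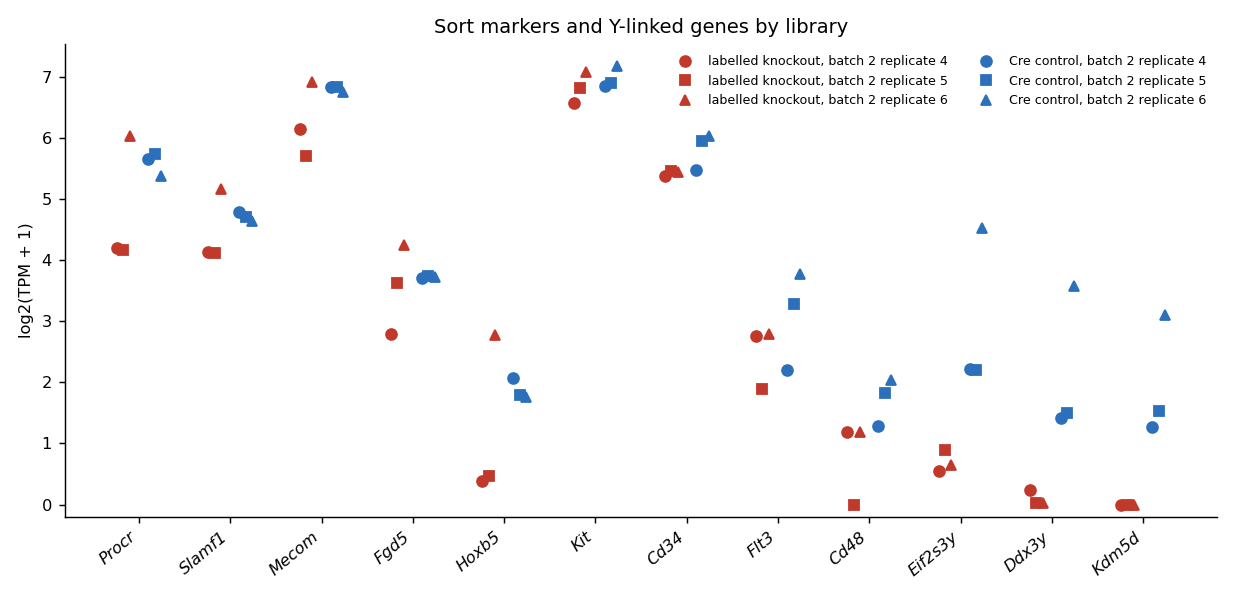
Levels of sort markers and of 3 Y-linked genes, log2(TPM + 1), in the 3 labelled knockout and 3 Cre control libraries, with 1 symbol per replicate. Knockout replicates 4 and 5 lie below the controls for Procr, Slamf1, Mecom and Hoxb5, and the Y-linked genes are near 0 in all 3 labelled knockouts.

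Of 4 Y-linked genes, 3 were lower in every labelled knockout than in every Cre control, and none passed the test. Kdm5d, a histone demethylase gene of the Y, was at 0, 0 and 0 TPM in labelled knockouts, against 1.42, 1.88 and 7.56 TPM in Cre controls. Eif2s3y, a translation factor gene of the Y, was at 0.456, 0.856 and 0.560 TPM in labelled knockouts, against 3.67, 3.61 and 22.0 TPM in Cre controls. Ddx3y, a Y-linked RNA helicase, was at 0.176, 0.0175 and 0.0173 TPM in labelled knockouts, against 1.66, 1.81 and 11 TPM in Cre controls. The groups did not overlap in any of these 3 genes, which in that direction held for 16.1% of all genes tested, and control replicate 6 was well above the other controls. Uty, a Y-linked demethylase gene, overlapped, at 3.47, 1.79 and 3.08 TPM in labelled knockouts, against 2.58, 3.86 and 12.3 TPM in Cre controls. The adjusted p across all genes was 0.70 for each (limma). Tsix, a gene of the X, was the other sex-linked gene tested. It was above every Cre control in all labelled knockouts on both scales and did not pass the test. In that direction this held for 3.95% of all genes as deposited and 7.92% after rescaling. The sex of the pooled animals and the knockout label cannot be told apart for genes that differ by sex.

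Across all genes, 10 differed between the labelled knockouts and the Cre controls, 1 higher and 9 lower. That is 0.0744% of the 13445 genes tested (0.00744% higher and 0.0669% lower; limma on log2(TPM + 1), Benjamini-Hochberg adjusted p under 0.05). At an unadjusted p under 0.05, 126 genes were higher (0.937%) and 490 lower (3.64%). After rescaling, 8 genes passed (0.0597% of 13406), and all 8 were among the 10. Without labelled knockout replicates 4 and 5 the count was 6, all among the 10, and without Cre control 4, 5 or 6 it was 6, 5 and 5, where a copy read in few libraries can fail the filter. Of the 10, 4 (Gm13841, Eno1b, Gm8116 and Gm4735) reached 1 TPM in the Cre controls alone. They passed the filter on low values only through the group where they are high, so their calls are no support and their values are given as a description. Gm13736 reached 1 TPM in the 3 Cre controls and in 1 of the 6 other libraries of the fit, short of the 3 that the filter needs. It too passed only through the Cre controls, and its call is no support. RefSeq annotates 8 of the 10 as pseudogenes, against 467 (3.70%) of the 12632 tested genes that it lists. The other 2 are protein-coding, Eno1b and the chemokine gene Ccl3. The 8 pseudogenes include Gm13841, Gm8116, Gm4735 and Gm13736, so their share is a description and no support. Pseudogenes of this kind are mostly copies of a working gene made from its messenger RNA, so their reads can be shared with the parent gene and their levels are uncertain.

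Copies of the ribosomal protein gene Rps3a were among the genes that fell most. Rps3a3 (chr13:108670580-108671443) was at 1.35, 0.762 and 1.06 TPM in labelled knockouts, against 437, 782 and 234 TPM in Cre controls. Rps3a2 (chr14:88122952-88123833) was at 3.53, 2.99 and 2.31 TPM in labelled knockouts, against 664, 1219 and 315 TPM in Cre controls. Both fell, by 7.72 ± 0.38 and 7.34 ± 0.40 on the log2(TPM + 1) scale (limma standard error; adjusted p = 2.27e-07 and 3.61e-07). The intact gene of the family, Rps3a1, was at 2004, 1866 and 2480 TPM in labelled knockouts, against 1427, 139 and 2142 TPM in Cre controls. Where the copies were high in a control, Rps3a1 was low in it, most of all in control replicate 5. The 3 genes summed averaged 2121 TPM in labelled knockouts and 2453 TPM in Cre controls, a difference of -0.21 ± 0.21 (log2, limma standard error) that did not pass the test (adjusted p = 0.72). Rps3a1 was added for comparison after its values were seen.

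Eno1b, a copy of the glycolysis gene enolase 1, was at 0.225, 0 and 0 TPM in labelled knockouts, against 44.2, 40.3 and 10.1 TPM in Cre controls. Its parent Eno1 was at 73.8, 48.2 and 113 TPM in labelled knockouts, against 67.9, 70.1 and 95.3 TPM in Cre controls, with overlapping groups. Summed, the pair averaged 78.3 TPM in labelled knockouts and 109 TPM in Cre controls (limma, adjusted p = 0.70).

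The pseudogene Gm13841 was at 0.686, 0.315 and 0.436 TPM in labelled knockouts, against 1479, 287 and 387 TPM in Cre controls. Gm8730 was at 1.32, 1.19 and 0.745 TPM in labelled knockouts, against 139, 62.8 and 61.8 TPM in Cre controls. Gm13736 was at 0, 2.53 and 0 TPM in labelled knockouts, against 41.7, 23.4 and 15.1 TPM in Cre controls. All 3 were read in every Cre control and were close to or at 0 under the knockout label. Gm8116 was at 0, 0 and 0.0998 TPM in labelled knockouts, against 13.7, 9.00 and 8.81 TPM in Cre controls. Gm4735 was at 0, 0.124 and 0.112 TPM in labelled knockouts, against 15.5, 12.2 and 2.74 TPM in Cre controls. It no longer passed after rescaling (adjusted p = 0.128).

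The single gene that rose was Gm13443 (chr2:35340338-35340987), a pseudogene that RefSeq names Glo1-ps after the glyoxalase gene Glo1. It was at 13, 15.6 and 22.0 TPM in labelled knockouts and is listed at 0 in all 3 Cre controls (limma, adjusted p = 7.39e-05). Its namesake Glo1, an enzyme that detoxifies methylglyoxal, was at 68.8, 66.0 and 83.1 TPM in labelled knockouts, against 46.8, 48.6 and 45.5 TPM in Cre controls. The Glo1 groups did not overlap, but the difference did not pass the test (limma, adjusted p = 0.70).

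For 9 of the 10 genes it was the Cre controls that stood apart from the whole series, not the labelled knockouts. In 8 of them all 3 Cre controls were above each of the other 18 libraries, and in Gm13443 they were below each. Over all genes tested, this held for 341 (2.54%), and the labelled knockouts stood apart in that way for 25 (0.186%) and for none of the 10. The 10 were picked by a test of this same contrast, which makes a gap between Cre controls and labelled knockouts likely. Their share is therefore a description only. Outside the Cre controls the highest level of any of the other 18 libraries was 1.64 TPM for Rps3a3, 3.53 TPM for Rps3a2 and 1.44 TPM for Gm13841, and the lowest for Gm13443 was 9.96 TPM. The floxed controls of batch 1, labelled without Cre, were on the side of the labelled knockouts in each of these 9 genes. The exception was Ccl3. Of the 9, Gm13841, Eno1b, Gm8116, Gm4735 and Gm13736 passed the filter on low values only through the Cre controls. Their standing apart is a description and no support.

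**Figure D3:**
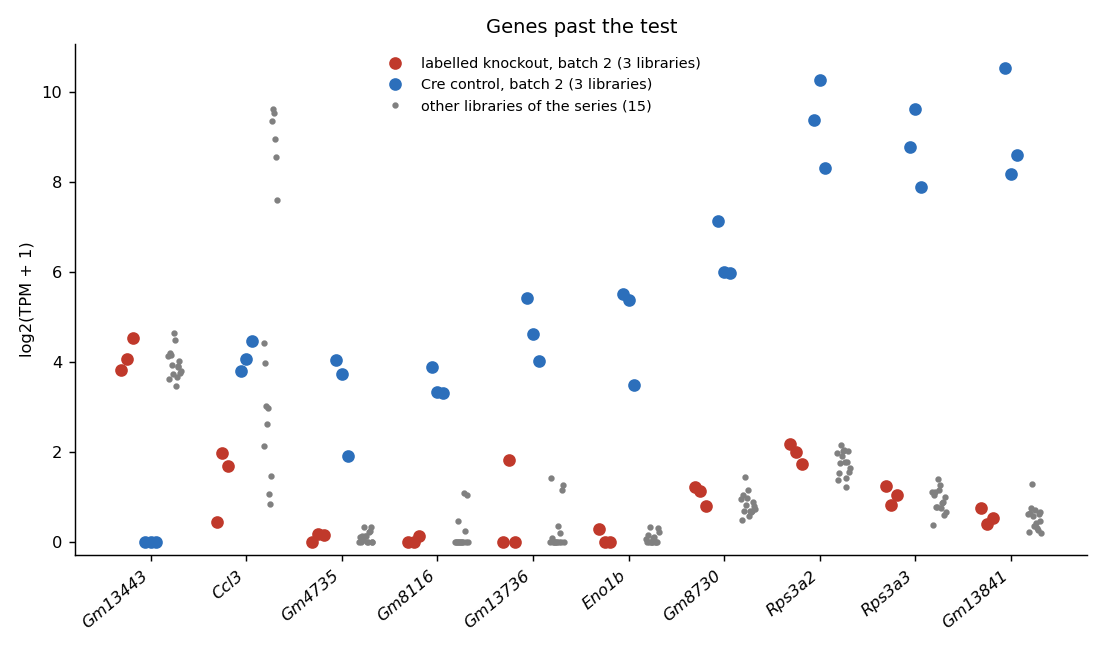
Levels, log2(TPM + 1), of the 10 genes past the test, in labelled knockouts, Cre controls and the 15 other libraries of the series (points are libraries). The other libraries lie with the labelled knockouts and away from the Cre controls in 9 genes, while Ccl3 spans both and is far higher in MPP. Gm13841, Eno1b, Gm8116, Gm4735 and Gm13736 passed the filter on low values only through the Cre controls.

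Ccl3, an inflammatory chemokine (MIP-1 alpha), was the one gene called that is neither a pseudogene nor a gene copy. It was at 0.357, 2.92 and 2.23 TPM in labelled knockouts, against 12.9, 15.7 and 21.0 TPM in Cre controls, and fell by 2.74 ± 0.41 on the log2(TPM + 1) scale (limma standard error; adjusted p = 0.0210). The groups did not overlap on either scale. After rescaling the difference did not pass (adjusted p = 0.132), and it passed in 9 of 26 alternatives, with adjusted p from 3.88e-05 to 0.943. The libraries with the Myc allele were low too, at 1.08, 0.800 and 1.75 TPM. In batch 1 the knockout LT-HSC were at 7.07, 5.13 and 6.82 TPM, against 20.2, 3.37 and 14.8 TPM in the floxed controls, with overlapping groups. MPP of batch 1 were far higher, at 491, 373 and 193 TPM in knockouts, against 647, 783 and 731 TPM in floxed controls, without overlap. The part that MPP in the sort had in the Ccl3 values of LT-HSC was not tested. Among the other chemokines, Ccl4 (MIP-1 beta) was at 2.54, 5.82 and 4.32 TPM in labelled knockouts, against 11.8, 10.4 and 16.0 TPM in Cre controls, without overlap but not past the test (limma, adjusted p = 0.70). Ccl5 was at 0.0479, 0.112 and 2.07 TPM in labelled knockouts, against 1.98, 4.70 and 10.1 TPM in Cre controls, and overlapped.

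The Ccl3 promoter is shown because Ccl3 is the only called gene that is no copy of another. The sequence is the 250 bases before the transcription start (RefSeq, GRCm38.p6, chr11:83649379-83649628, minus strand, read 5′ to 3′ along the gene). Capitals mark AGGTCA, the unit that RXR and its partners read in pairs.
Ccl3: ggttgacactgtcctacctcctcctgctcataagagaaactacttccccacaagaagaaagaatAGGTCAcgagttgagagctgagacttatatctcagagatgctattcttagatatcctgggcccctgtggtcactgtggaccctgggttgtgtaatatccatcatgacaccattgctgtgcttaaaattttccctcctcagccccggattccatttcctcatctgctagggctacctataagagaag
Both strands were searched in 300-base promoters, from 250 bases before to 50 after the start. AGGTCA was found in 16.3% of all 32851 RefSeq promoters of that length. A direct repeat of AGGTCA with 1 to 5 bases between the copies was not in the Ccl3 window and was in 26 promoters in all (0.0791%). A match or its lack in this window describes letters only.

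The genes with the next smallest p-values did not pass the test and held more genes of the same pattern. Of the 30 leading genes with a symbol, called ones included, the Cre controls stood apart from all 18 other libraries in 20. That is 66.7%, against 2.54% of all genes tested, but the 30 were picked by p for this same contrast. Gm8810 was at 2.03, 11.5 and 9.02 TPM in labelled knockouts and is listed at 0 in all Cre controls (limma, adjusted p = 0.0543). The olfactory receptor gene Olfr90 was at 2.94, 1.51 and 2.81 TPM in labelled knockouts, against 0.0936, 0.0265 and 0.145 TPM in Cre controls. Nnt, the mitochondrial transhydrogenase that makes NADPH, was at 9.76, 4.81 and 8.60 TPM in labelled knockouts, against 24.7, 26.5 and 20.7 TPM in Cre controls (adjusted p = 0.281). Psd4, an exchange factor for ARF6, was at 20.7, 18.8 and 24.9 TPM in labelled knockouts, against 49.7, 52.0 and 51.6 TPM in Cre controls (adjusted p = 0.263). Oaz1, which limits polyamine synthesis, was at 30.7, 39.9 and 39.7 TPM in labelled knockouts, against 81.7, 84.0 and 90.7 TPM in Cre controls (adjusted p = 0.263). The groups did not overlap in any of these 5 genes, which their choice by small p makes likely, so this is a description only. In Oaz1 the Cre controls did not stand apart from the series, where other libraries reached 97.4 TPM.

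Some of the leading genes start near the floxed loci. No gene past the test started within 5 Mb of Rxra or Rxrb. Gm13443 starts 7.66 Mb from Rxra, on the same chromosome. Among the 28 of the 30 leading genes with a RefSeq position, 3 started within 5 Mb of Rxrb (Gm8810, Olfr90 and Gm9574, 10.7%), against 1.41% of all tested genes with a position. For Rxra it was 1 gene (Psd4, 3.31 Mb away, 3.57%), against 1.31%. The 30 were picked by p for this same contrast, and Gm9574 passed the filter on low values only through the Cre controls. These shares are therefore a description and no support. Gm9574 was at 0, 0.0813 and 0.0398 TPM in labelled knockouts, against 1.27, 2.36 and 2.6 TPM in Cre controls. The class II antigen-presentation genes also lie beside Rxrb. H2-Eb1, 0.27 Mb away, was at 16.2, 8.83 and 32.3 TPM in labelled knockouts, against 37.2, 66.5 and 51.5 TPM in Cre controls. H2-Aa, 0.25 Mb away, was at 79.0, 36.6 and 100 TPM in labelled knockouts, against 109, 160 and 152 TPM in Cre controls. Both were lower without overlap, on both scales, and neither passed the test (limma, adjusted p = 0.70 each). B cell markers in that list, among them Cd79a, Ms4a1 and Pax5, were under 1 TPM in all 6 libraries.

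Splicing separated the groups at 4 genes, with PSI differences from 0.67 to 0.98 in size. Of 25312 events with values in all 9 batch 2 libraries, 8 passed (0.0316%; limma, adjusted p under 0.05 and a PSI difference of at least 0.1), 3 higher (0.0119%) and 5 lower (0.0198%) in labelled knockouts. At an unadjusted p under 0.05, 2.90% of events differed. Without labelled knockout replicates 4 and 5 the count was 16, with 2 of the 8 events still past the test (1 in Hspa8 and 1 in Arglu1). Without replicate 6 it was 37, all 8 among them, and without Cre control 5 it was 5. The 8 events lie in Hspa8, Psd4, Arglu1 and Uxs1, and events of 1 gene share reads.

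Hspa8 encodes the constitutive heat shock cognate chaperone HSC70, and of the 4 genes it was the one where the labelled knockouts stood apart from the other 18 libraries. Over all events tested they stood apart in that way in 118 (0.466%). Reads into an intron of Hspa8 (chr9:40802912-40802913, against the spliced junction chr9:40802891-40802974) had a PSI of 0.938, 0.931 and 0.912 in labelled knockouts, against 0.0178, 0.0305 and 0.0225 in Cre controls. The difference was 0.90 ± 0.05 (limma standard error; adjusted p = 8.48e-04). The spliced junction itself was at 0.0424, 0.0426 and 0.0645 in labelled knockouts, against 0.971, 0.959 and 0.970 in Cre controls (adjusted p = 1.38e-03). Libraries with the Myc allele were at 0, 0.179 and 0.0763 for the retained intron, and batch 1 knockout LT-HSC at 0.0211, 0.0748 and 0.0759. Hspa8 transcripts were at 298, 275 and 426 TPM in labelled knockouts, against 613, 566 and 846 TPM in Cre controls, without overlap and not past the test (limma, adjusted p = 0.381). Of the 26 chaperone and stress genes tested, 7 were below all Cre controls in every labelled knockout (26.9%, against 16.1% of all genes) and 6 were after rescaling (23.1%, against 9.23%). They included Hsp90aa1, Atf4 and Hspa1b, and none passed the test.

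At Psd4 and Uxs1 it was the Cre controls that stood apart. Over all events tested they stood apart from the other 18 libraries in 95 (0.375%), near the share for the labelled knockouts (0.466%). The called events were picked by a test of this same contrast, so this is a description only. The junction that removes an intron of Psd4 (chr2:24395040-24396305) had a PSI of 0.0349, 0.00962 and 0 in labelled knockouts, against 0.999, 0.988 and 1.00 in Cre controls (difference -0.98 ± 0.06, limma standard error; adjusted p = 1.61e-03). No library outside the Cre controls was above 0.244. Reads into the far end of that intron had a PSI of 0.842, 0.867 and 0.826 in labelled knockouts, against 0, 0 and 0 in Cre controls. Reads into the near end had a PSI of 0.371, 0.538 and 0.389 in labelled knockouts, against 0, 0 and 0 in Cre controls, and that event did not pass the test (limma, adjusted p = 1.0). The other 15 libraries lay with the labelled knockouts at both ends. In Uxs1, which makes UDP-xylose, the junction chr1:43774876-43780065 had a PSI of 0.0759, 0.228 and 0.227 in labelled knockouts, against 1, 0.926 and 1 in Cre controls (adjusted p = 0.0308). It was at most 0.578 in the other 15 libraries. The Uxs1 event passed in 4 of 12 alternatives.

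Arglu1, a splicing cofactor with a regulated intron, was split within groups elsewhere. Reads into its intron (chr8:8681467-8681468) had a PSI of 0, 0 and 0 in labelled knockouts, against 0.825, 0.858 and 0.923 in Cre controls (difference -0.87 ± 0.04, limma standard error; adjusted p = 4.62e-04). A second point of the intron (chr8:8681889-8681890) was at 0, 0 and 0 in labelled knockouts, against 0.581, 0.661 and 0.760 in Cre controls. Outside these 6 libraries the first event was at 0 in each library with the Myc allele, at 0, 0 and 0.951 in batch 1 LT-HSC knockouts, and at 0.882, 0 and 0 in their floxed controls. Single libraries of 1 group therefore took either value. Arglu1 transcripts were at 90.3, 79.8 and 89.5 TPM in labelled knockouts, against 62.2, 65.9 and 79.9 TPM in Cre controls.

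**Figure D4:**
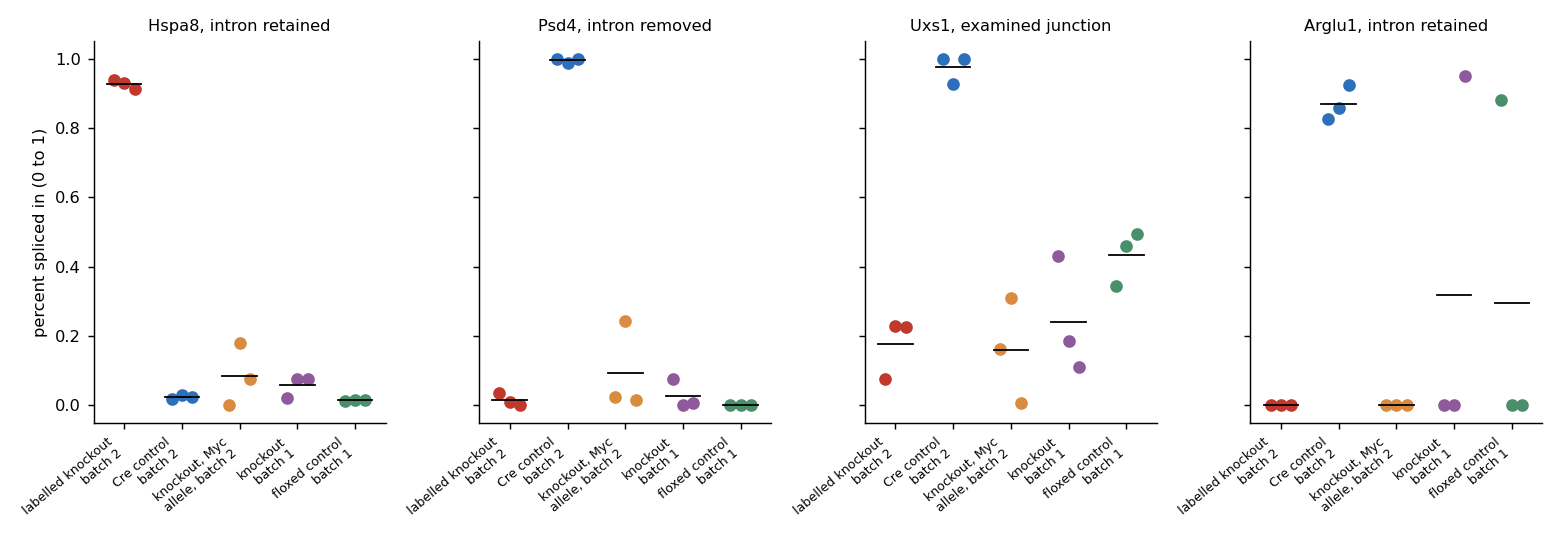
PSI of 1 event at each of Hspa8, Psd4, Uxs1 and Arglu1 by LT-HSC group. Points are libraries and black lines are means of 3 libraries. The labelled knockouts stand apart at Hspa8 and the Cre controls at Psd4 and Uxs1, while at Arglu1 single batch 1 libraries share the high value of the Cre controls.

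The receptor pathways that RXR serves held no gene past the test. Background rates are needed to read them, since 16.1% of all genes (2171) were below every Cre control in all labelled knockouts and 3.95% (531) were above, and after rescaling 9.23% were below and 7.92% above. Of 17 LXR target genes tested, 7 were below all Cre controls (41.2%), and 2 after rescaling (11.8%). Abca1, a cholesterol exporter and classical LXR and RXR target, was at 3.90, 1.73 and 4.01 TPM in labelled knockouts, against 4.24, 4.71 and 5.72 TPM in Cre controls. Abcg1, its partner in cholesterol export, was at 20.8, 10.2 and 21.4 TPM in labelled knockouts, against 23.5, 23.4 and 22.9 TPM in Cre controls. Both were below the controls only on the deposited scale. Acsl3, an acyl-CoA synthetase, and Smpdl3a, a secreted phosphodiesterase, were the 2 that stayed below after rescaling. Acsl3 was at 13.2, 11.2 and 18.2 TPM in labelled knockouts, against 24.7, 23.4 and 20.9 TPM in Cre controls, and Smpdl3a was at 34.1, 34.2 and 48.6 TPM, against 63.1, 59.8 and 53.3 TPM in Cre controls.

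Of 9 retinoic acid genes tested, 1 was below all Cre controls (11.1%, against 16.1% of all genes). Cyp26b1, which breaks down retinoic acid and is induced by it, was at 0.661, 0.15 and 2.12 TPM in labelled knockouts, against 3.42, 3.84 and 1.24 TPM in Cre controls. Aldh1a1, which makes retinoic acid, was at 89.8, 90.1 and 177 TPM in labelled knockouts, against 211, 202 and 145 TPM in Cre controls. In both, knockout replicate 6 overlapped the controls. Of 18 PPAR targets, 4 were below all Cre controls (22.2%), and Ucp2, a mitochondrial carrier, was at 120, 106 and 151 TPM in labelled knockouts, against 208, 184 and 189 TPM in Cre controls. Of 18 receptors and cofactors, Rxrb was below and the orphan receptor Nr4a3 above all Cre controls. Rara, Nr1h2 (LXR beta) and Vdr overlapped between the groups, and Vdr was at 7.77, 7.10 and 16.2 TPM in labelled knockouts, against 14.3, 14.6 and 12.8 TPM in Cre controls.

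Among cell programmes, genes of myeloid priming were below the controls at the same count on both scales. Other lists kept their count too, cholesterol synthesis and splicing factors among them. Of 23 tested, 7 were below every Cre control (30.4%) with and without rescaling, and none passed the test. The share of all genes was 16.1% as deposited and 9.23% after rescaling. They included Mpo, the granule enzyme myeloperoxidase, at 0.720, 3.95 and 6.46 TPM in labelled knockouts, against 47.1, 7.68 and 34.3 TPM in Cre controls. Elane, neutrophil elastase, was at 0, 0 and 0.854 TPM in labelled knockouts, against 6.38, 1.29 and 4.43 TPM in Cre controls. Ly6c2, a monocyte surface gene, was at 0, 0 and 0.561 TPM in labelled knockouts, against 7.57, 1.08 and 5.38 TPM in Cre controls. Control replicate 5 was the lowest control in each of these 3 genes. Summed markers of mature neutrophils overlapped, at 42.9, 37.3 and 47.5 TPM in labelled knockouts, against 40.3, 47.8 and 79.1 TPM in Cre controls. Of the 20 neutrophil markers, Stfa1, Stfa2 and Stfa3 were at 0 in all 6 libraries and 10 were under 1 TPM in all 6. Whether more differentiated cells contributed to the myeloid difference was not tested.

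Some interferon response genes were above the controls. The median log2 difference of the 44 tested was -0.15, against -0.25 for all genes. Of the 44, 5 were above all Cre controls (11.4%, against 3.95% of all genes) and 9 were after rescaling (20.5%, against 7.92%), and 1 was below on each scale. Bst2, the antiviral tetherin, was at 51.2, 47.6 and 58.6 TPM in labelled knockouts, against 25.9, 22.6 and 38.7 TPM in Cre controls. None of the 44 passed the test. Their summed TPM overlapped, at 2736, 1853 and 3296 in labelled knockouts, against 3195, 3279 and 2737 in Cre controls.

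Counts of ribosomal protein genes below the controls changed with the scale but exceeded the share of all genes on both scales. Of all genes tested, 16.1% were below all Cre controls as deposited and 9.23% after rescaling. Of 41 tested, 27 were below all Cre controls (65.9%) and 11 were after rescaling (26.8%), with a median log2 difference of -0.30 against -0.25 for all genes. Rplp0, a stalk protein of the ribosome, was among those above, at 925, 912 and 1061 TPM in labelled knockouts, against 251, 677 and 674 TPM in Cre controls. Of 36 genes of G2 and M phase, 16 were below (44.4%) and 3 after rescaling (8.33%), and of 37 S phase genes 14 were below (37.8%) and 8 after rescaling (21.6%). Among 23 genes of G1 control and quiescence, Cdkn1c, the inhibitor p57 that holds stem cells at rest, was at 3.28, 2.17 and 5.12 TPM in labelled knockouts, against 6.86, 6.84 and 5.99 TPM in Cre controls. It was below on both scales and did not pass the test (limma, adjusted p = 0.70). Of 30 Myc targets, 8 were below (26.7%) and 6 after rescaling (20.0%).

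No member of the erythroid or lymphoid lists passed the test. Of 23 erythroid markers tested, 5 were below all Cre controls (21.7%, against 16.1% of all genes) and 3 after rescaling (13%, against 9.23%). Hbb-bs, an adult beta globin, was at 3.61, 6.32 and 7.15 TPM in labelled knockouts, against 15.6, 21.3 and 30 TPM in Cre controls (limma, adjusted p = 0.263). Other globin genes overlapped. Hbb-bt was at 64.0, 44.5 and 32.9 TPM in labelled knockouts, against 99.4, 65.0 and 29.8 TPM in Cre controls, and Hba-a1 at 15.1, 18.2 and 1.44 TPM, against 13.9, 6.07 and 10.1 TPM in Cre controls. The 24 erythroid markers summed did not overlap as deposited, at 537, 551 and 549 TPM in labelled knockouts, against 831, 670 and 794 TPM in Cre controls, and overlapped after rescaling. Of 12 lymphoid priming genes, 4 were below (33.3%) and 3 after rescaling (25%). Among 27 T and NK cell markers, 11 were under 1 TPM in all 6 libraries, and Cd3e was at 0. The part that other cells in the sort have in these differences was not tested.

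The inflammatory NF-kB list, which holds Ccl3, had 1 member past the test out of 23, where 0.0744% of all genes passed. That member is Ccl3 itself, described above, and it did not pass after rescaling. Of the 23 genes, 6 were below all Cre controls (26.1%, against 16.1% of all genes) and 3 after rescaling (13%, against 9.23%). The median log2 difference of the list was -0.46. Besides Ccl3 and Ccl4 the 6 were Ptgs2, Nfkbib, Tnip1 and Nfkb1. Il6, Il1b, Cd83 and Vcam1 were under 1 TPM in all 6 libraries, and Cxcl1 was listed at 0 in each.

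No member of the lists of oxidative phosphorylation, cholesterol synthesis or splicing factors passed the test. Of 36 genes of oxidative phosphorylation, 17 were below all Cre controls (47.2%, against 16.1% of all genes) and 5 after rescaling (13.9%, against 9.23%). Of 20 genes of cholesterol synthesis, 4 were below on each scale (20.0%). Insig1, which restrains sterol synthesis, was at 8.06, 10.8 and 14.5 TPM in labelled knockouts, against 24.0, 21.1 and 15.6 TPM in Cre controls. Of 33 splicing factors, 4 were below (12.1%) and 1 above as deposited, where 3.95% of all genes were above. After rescaling 4 were below (12.1%) and 9 above, where 7.92% of all genes were above. The median log2 difference of that list was -0.19, against -0.25 for all genes, and 0.06 after rescaling, against -0.03. Hnrnpk, an RNA-binding protein and 1 of the 4 below, was at 46.4, 43.5 and 118 TPM in labelled knockouts, against 153, 153 and 148 TPM in Cre controls. In Insig1 and Hnrnpk knockout replicate 6 was the library nearest to the controls. Rps12 and Rps27, ribosomal protein genes that every cell uses, are listed at 0 in all 6 libraries, so a 0 in the deposited table need not mean that a transcript is lacking.

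**Figure D5:**
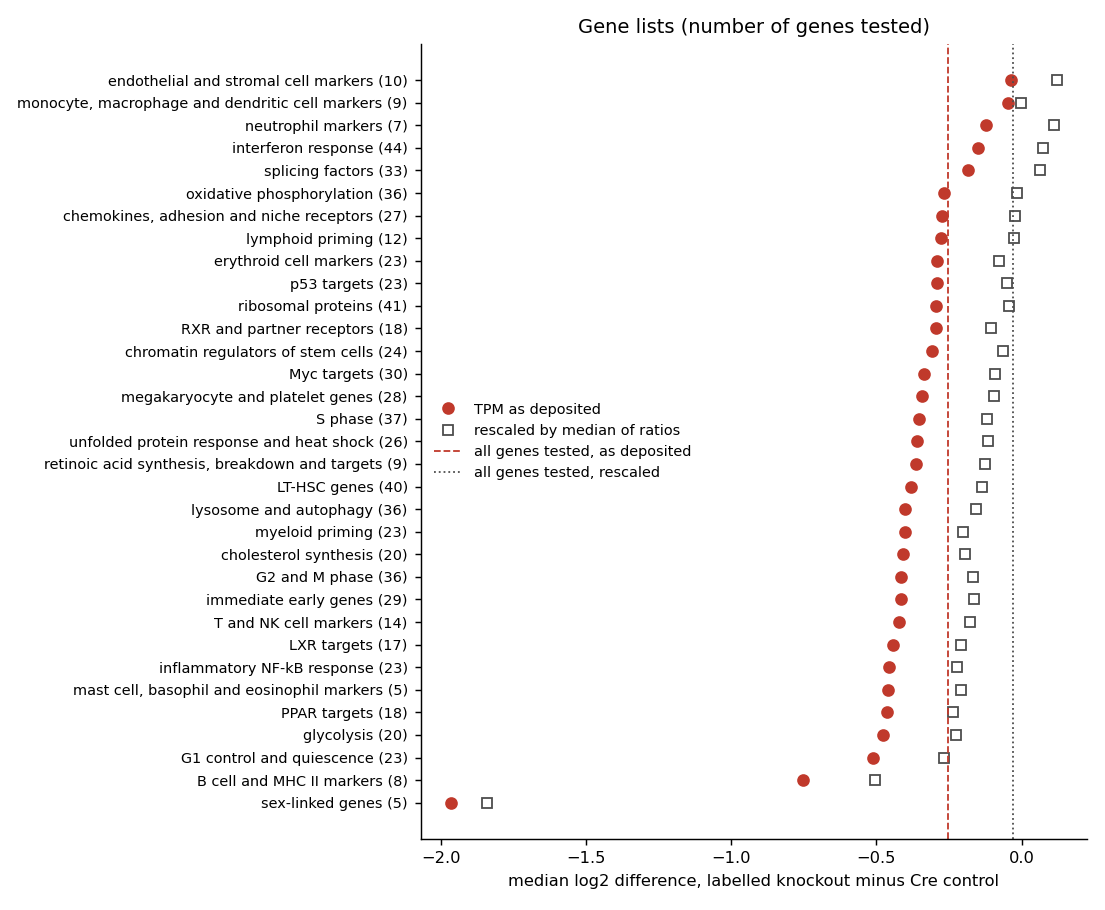
Median log2 difference, labelled knockout minus Cre control, of each gene list with at least 5 genes tested, on TPM as deposited (filled circles) and after rescaling by the median of ratios (open squares). Vertical lines are the medians of all genes tested, -0.25 as deposited and -0.03 rescaled. Sex-linked genes and the B cell and MHC II list lie farthest below those lines.

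The same contrast in batch 1, between knockout LT-HSC and floxed controls, differed from that of batch 2 for 184 of 14492 genes (1.27%; limma interaction over 12 libraries, adjusted p under 0.05), 4 higher (0.0276%) and 180 lower (1.24%) in batch 2. After rescaling 18 genes differed, 8 higher and 10 lower. The count was 5548 without labelled knockout 6 of batch 2, and 2355 and 765 without floxed control 1 and knockout 1 of batch 1. It was 18 and 94 without floxed controls 2 and 3, 30 and 23 without batch 1 knockouts 2 and 3, 53, 45 and 73 without Cre controls 4, 5 and 6, and 101 without labelled knockout 5. The median of that difference over all genes was -0.73 as deposited and -0.02 rescaled. The controls of the 2 batches differ in genotype, since those of batch 1 are labelled floxed without Cre and those of batch 2 are labelled Cre without floxed alleles. Batch and control genotype cannot be told apart here. Rps3a3 differed by -7.72 in batch 2 and 0.04 in batch 1, and Gm13443 by 4.13 in batch 2 and -0.04 in batch 1 (log2, labelled knockout minus control). Sva, a seminal vesicle autoantigen gene, was at 9.57, 16.4 and 15.3 TPM in batch 1 knockouts, and is listed at 0 in each batch 1 floxed control and in all 9 batch 2 libraries.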

How the data were processed

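Members and gene lists were chosen with earlier results of these data known. The authors deposited TPM per Ensembl gene and PSI as a fraction per splicing event, and per the submitters' processing notes kallisto, STAR 2.6 and mm10 were used. Versions, transcript set, event caller and read minimum are otherwise not given in the sources used here. TPM and PSI carry no depth, so counting error is unknown. Of 28987 identifiers 94.73% matched a symbol, and positions are from RefSeq for GRCm38.

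Genes that reached 1 TPM in 3 or more of the 9 batch 2 libraries were tested on log2(TPM + 1) with limma 3.58.1 (R 4.3.3, intensity trend), which understates changes of low genes. All 3 batch 2 groups shared 1 estimate of the spread. Events needed a value in all 9 libraries. P-values were adjusted over the whole table by the Benjamini-Hochberg method. Rescaling divides each library by its median-of-ratios factor. For Rxra and Rxrb an exact two-sided permutation test was used. Genes are named by rank among those past the test, then by p up to 30 in all, up to 3 per list, and up to 10 by p for the batch difference, with receptors and sort markers in any case. Other genes were named after their values were seen (Rps3a1, Eno1, Glo1, Ccl4, Abca1, Abcg1, Vdr and Arglu1 among them). Methods were tested on simulated data. P-values measure the spread between pools of animals. Same-numbered libraries did not deviate together (correlations -0.04, -0.02 and -0.15), so the numbers do not pair them. Some genes that the naming rule chose are not reported here.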

Additional observations from a re-analysis of the deposited data

Results flagged for a closer look

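Genes chosen for the text are listed here where the labelled knockout effect of batch 2 (against Cre controls) and the knockout effect of batch 1 (against floxed controls) differed by the interaction test over 12 LT-HSC libraries (limma, adjusted p under 0.05). Values are log2 differences, batch 2 minus batch 1. The difference passed on both scales and was negative at -7.76 for Rps3a3, -7.65 for Rps3a2, -8.92 for Gm13841, -5.46 for Gm8730, -3.85 for Sva, -3.61 for Gm8116, -4.72 for Eno1b, -4.68 for Prg2, -2.15 for ENSMUSG00000054040 and -2.44 for Nnt. It passed on both scales and was positive at 4.17 for Gm13443, 3.01 for Gm15344 and 2.04 for Gm17024. It passed only as deposited at -3.06 for Mxra8, -4.03 for Elane, -3.24 for Gm4735, -4.71 for Mpo, -1.99 for Psd4, -4.32 for Ly6c2, -3.57 for Gm13736, -2.41 for Kdm5d, -2.87 for Eif2s3y, -1.60 for Gm9574, -2.52 for Nkg7, -1.69 for Oaz1, -2.12 for 2310009B15Rik, -2.10 for Mtus1, -1.69 for Cdk6 and -1.77 for Ctss, and at 2.54 for Gm8810, the only positive one. Among these 12 libraries, Sva, Prg2 and ENSMUSG00000054040 passed the filter on low values only through the batch 1 knockouts, where they are high. Gm13841, Eno1b, Gm8116, Gm4735, Gm13736 and Gm9574 passed it only through the Cre controls. Their tests are no support, and their values are a description. In Sva, Prg2 and ENSMUSG00000054040 the batch 2 effect was 0, -0.62 and -0.08 and the batch 1 effect 3.85, 4.06 and 2.06, in that order. In Mpo, Elane and Ly6c2 the batch 2 effect was negative and the batch 1 effect positive (for Mpo -2.62 and 2.10, for Elane -1.88 and 2.15). Groups held 3 libraries each, so no test for a single outlying library was made. The causes of these differences were not tested.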

How the results depend on the processing

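The count of 10 genes stayed within 1.5 times under median-of-ratios, quantile and without-the-largest-identifier scaling, both other pseudocounts, the filter at 5 TPM and the fit of 6 libraries alone (8 to 13). It was 18 without a filter on low values and 3793 with array weights. Leaving out 1 library gave 5 to 9 genes, and 4 to 8 with rescaling as well (5 without Cre control 4, 4 without Cre control 5 and 4 without Cre control 6). Without labelled knockout replicates 4 and 5 it was 6, and with the Rps3a and Eno1 copies summed it was 7. The last alternatives, those with rescaling and a library left out and those without replicates 4 and 5, were chosen after seeing the data.

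The count of 184 genes whose effect differed between batches was 18 with median-of-ratios and 18 with quantile scaling, 25 without the largest identifier, 63 with a pseudocount of 0.1, 62 without a filter, 967 with the filter at 5 TPM, and 19 with all 15 LT-HSC libraries. Without labelled knockout replicates 4 and 5 it was 18, and leaving out 1 library gave 18 to 5548. The 8 splicing events became 16 without labelled knockout replicates 4 and 5, and 5 to 37 with 1 library left out. The causes were not tested.

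The replicate numbers do not pair the libraries. With the number as a replicate block, 54 genes, 1105 genes of the batch difference and 0 splicing events passed (adjusted p from 0.333 to 0.819 for the events called otherwise), and with the block and median-of-ratios scaling 10 genes passed. The block left Rxra at -0.28 TPM and Rxrb at -3.69 TPM.

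The Rxra difference of -0.28 TPM turned to 0.695 with median-of-ratios scaling and 0.348 without the largest identifier, and spanned -1.89 to 1.21 with 1 library left out. Rxrb spanned -4.34 to -3.25. In log2 terms Rxra spanned -0.71 to 0.24 with 1 library left out and was 0.44 with rescaling and without labelled knockout 4. Rxrb was 0.0058 with rescaling and without labelled knockout 6. Myc, at -0.17 as deposited, was 0.085 with median-of-ratios, 0.12 with quantile scaling and 0.082 with the block and rescaling. With rescaling it was 0.095, 0.096 and 0.062 without Cre control 4, 5 or 6 and 0.068, 0.12 and 0.055 without labelled knockout 4, 5 or 6, and it was 0.16 without labelled knockouts 4 and 5. Without those 2 libraries the sign also turned for Pdzk1ip1 (0.18), Ncoa1 (0.0895), Aldoa (0.0041), Ccnd2 (0.12), Jun (0.11), Sesn1 (0.046), Chd4 (0.17), Mmrn1 (0.029), Ppbp (0.054), Runx1 (0.024) and Gata2 (0.025). With rescaling and 1 library left out it turned for Csf3r (0.0073, Cre control 5) and S100a9 (0.27, Cre control 6). S100a9 spanned -2.04 to 0.13 with 1 library left out, and Lepr was -0.0078 with array weights. None of these genes passed the test as deposited. No depth is given, so low TPM and PSI values carry an unknown counting error.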
